A study of Mus musculus with 12 samples.

Results

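The Cyp2a genes encode cytochrome P450 enzymes of the endoplasmic reticulum. The mouse family was represented here by Cyp2a4, Cyp2a5, Cyp2a12 and Cyp2a22. These 4 members were taken by gene symbol from a deposited table of 37991 genes, and all 4 were present. Another symbol with the same first letters, Cyp2ab1, belongs to another subfamily and was not counted. The family was chosen by measured values of these libraries: Cyp2a5 and Cyp2a4 had been found higher in REV-ERB KO cells under DMSO. Values for that difference are therefore given as a description, without a test.

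RNA was sequenced from plated primary hepatocytes of male mice, 10 weeks old, whose Nr1d1 and Nr1d2 genes (REV-ERBα and REV-ERBβ) were both floxed. The mice had been injected 2 weeks before with an AAV8 vector in which the TBG promoter, active in hepatocytes, drove GFP alone (control) or Cre with GFP (labelled REV-ERB KO). The cells were given DMSO or 10 µM SR9009, a compound used as a REV-ERB agonist, for 8 h. Each genotype was given each treatment, in 4 groups of 3 libraries. Floxed alleles, the AAV8 vector and GFP were common to all 4 groups, and a Cre vector in mice without floxed alleles was not among them, so Cre and REV-ERB loss cannot be told apart. Whether the 3 replicates of a group came from different mice is not stated, so every p-value reflects the spread among these libraries alone, and that spread may be technical.

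P450 enzymes insert oxygen into lipophilic substrates and receive electrons from the reductase POR and from cytochrome b5. Cyp2a5 is the mouse coumarin hydroxylase and the counterpart of human CYP2A6, which oxidises nicotine; Cyp2a4 hydroxylates steroids and is known for higher levels in female than in male mouse liver. Cyp2a12 hydroxylates bile acids and steroids. Transcription of Cyp2a5 is known to respond to the xenobiotic receptor CAR, to the hepatocyte factor HNF4α, to NRF2, and to the clock output factor DBP, while REV-ERB proteins repress genes of the clock.

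The family falls into pairs of near-identical copies, which is shown first because it bears on every value below. Sequences of the coding transcripts came from GENCODE M21 and upstream windows from RefSeq (GRCm38.p6), where all 4 members were matched. The coding sequences of Cyp2a4 and Cyp2a5 are both 1485 bases long and differ at 23 positions (98.5% identical). Those of Cyp2a12 and Cyp2a22, both 1479 bases, differ at 45 positions. Between the pairs, identity was 75.3% to 76.7%. Of all stretches of 75 bases in the Cyp2a4 transcript, 21.0% occur without a mismatch in that of Cyp2a5, and 4.22% of those of 150 bases. For Cyp2a12 against Cyp2a22 the corresponding shares were 14.3% and 3.72%. No stretch of 50 bases of the Cyp2a5 transcript occurs in that of Cyp2a12. A read from such a shared stretch can be assigned to either copy, and the sources used here do not say how such reads were handled. The longest run without a difference between Cyp2a4 and Cyp2a5 covers 216 coding bases, from position 742 to 957. The stretch of 120 coding bases with the most differences, positions 550 to 669 counted from the A of the start codon, is printed to show how little separates these copies, with the differing bases in capitals. Read from Cyp2a4 to Cyp2a5, the 6 differences are C555T, T603G, A607C, C625T, G655C and T669C.
Cyp2a4: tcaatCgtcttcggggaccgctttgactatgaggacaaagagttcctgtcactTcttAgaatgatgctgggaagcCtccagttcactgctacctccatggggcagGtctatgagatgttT
Cyp2a5: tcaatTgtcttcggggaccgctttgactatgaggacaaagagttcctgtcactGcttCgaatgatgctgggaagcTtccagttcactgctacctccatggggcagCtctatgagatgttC

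The 250 bases before the RefSeq start sites show the same pairing, and are printed to show where the copies differ. Whether these differences bear on the levels was not tested. Cyp2a4 (chr7:26306942-26307191, + strand) and Cyp2a5 (chr7:26835089-26835338, + strand) differed at 4 of 249 aligned bases, which stand in capitals.
Cyp2a4: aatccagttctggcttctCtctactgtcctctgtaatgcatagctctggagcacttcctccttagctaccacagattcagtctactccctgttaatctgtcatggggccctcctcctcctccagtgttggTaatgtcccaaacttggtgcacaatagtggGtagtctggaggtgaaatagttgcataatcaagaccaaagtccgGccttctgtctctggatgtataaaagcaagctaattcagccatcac
Cyp2a5: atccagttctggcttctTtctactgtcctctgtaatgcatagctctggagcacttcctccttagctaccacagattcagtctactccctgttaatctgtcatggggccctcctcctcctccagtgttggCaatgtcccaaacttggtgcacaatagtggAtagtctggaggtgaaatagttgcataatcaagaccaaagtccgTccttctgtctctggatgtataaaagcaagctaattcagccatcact
Cyp2a12 (chr7:27028840-27029089, + strand) and Cyp2a22 (chr7:26939387-26939636, - strand) differed at 19 of 232 aligned bases, with 7 further bases in gaps. Capitals again mark the bases that differ.
Cyp2a12: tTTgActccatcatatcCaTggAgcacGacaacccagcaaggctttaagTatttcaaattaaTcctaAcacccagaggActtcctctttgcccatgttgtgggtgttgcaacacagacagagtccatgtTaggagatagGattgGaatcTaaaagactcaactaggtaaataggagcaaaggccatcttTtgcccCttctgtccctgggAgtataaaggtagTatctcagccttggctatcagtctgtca
Cyp2a22: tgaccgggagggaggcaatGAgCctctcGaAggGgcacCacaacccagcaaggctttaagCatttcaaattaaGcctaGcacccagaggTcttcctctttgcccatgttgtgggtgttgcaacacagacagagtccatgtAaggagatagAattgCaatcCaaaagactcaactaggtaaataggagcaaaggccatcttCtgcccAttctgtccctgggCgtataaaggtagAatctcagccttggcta

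Short motifs, chosen after these sequences had been read, were searched on both strands of the 250 bases and in the 32851 RefSeq windows of the same length. TTGCATAA, a site type bound by C/EBP and by factors of the DBP family, occurs once in Cyp2a4 and once in Cyp2a5, 71 to 64 bases before the start of Cyp2a5, and in 0.694% of all windows. CAAAGTCC, of the type bound by HNF4α, follows 56 to 49 bases before the Cyp2a5 start and occurs in 1.2% of windows. Neither was found in the windows of Cyp2a12 and Cyp2a22. TATAAA occurs once in each member and in 12.4% of windows. The nuclear receptor site AGGTCA (14% of windows) and the longer element bound by REV-ERB and ROR, AANT followed directly by AGGTCA (0.177%), overlap by construction, and neither was found in the 4 windows. These are matches of letters within 250 bases, not measurements of binding.

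Some facts of the libraries precede the values. The deposited values, whose unit the header does not name, were read as FPKM (fragments scaled to transcript length and library size). In a library, 10611 to 10932 genes reached 1 FPKM. Low values of short genes moved in steps, whose size gives relative depth: 1 step at 1 kb was 0.0187 FPKM in the deepest library (control DMSO 1) and 0.0336 FPKM in the shallowest (control SR9009 1). With GENCODE M21 transcript lengths, Cyp2a4 rested on about 16 to 118 steps in a control library and 629 to 1124 in a KO-labelled one, and Cyp2a22 on 20 to 76. The albumin gene Alb stood at 18369 to 20882 FPKM, and the lowest value of the other 7 hepatocyte markers was 160 FPKM. Markers of other liver cells were low: for DMSO, the 8 Kupffer cell markers summed to 40.3 to 51.4 FPKM in control libraries and 32.1 to 42.1 in KO-labelled ones. The 7 endothelial markers summed to 7.03 to 7.93 and 10.8 to 16.1 FPKM in these groups, and those of stellate cells and lymphocytes to at most 2.83 and 0.351 FPKM. Bile duct markers summed to 42.1 to 44.7 and 29.1 to 38.8 FPKM, mostly from Spp1 (21.0 to 56.8 FPKM over all libraries). Only Sox9 and Spp1 of these were tested. In DMSO, 1 was higher and 1 lower in KO-labelled cells, against 11.7% and 8.32% of all tested genes. Of 4 tested endothelial markers 3 were higher and none lower, and of 7 tested Kupffer cell markers 1 was higher and 3 lower. Cd68 gave much of the Kupffer sum (16.2 to 31.2 FPKM over all libraries). Between genotypes under SR9009, no endothelial marker was called. Kupffer cells and bile duct each had 1 marker higher and 1 lower there (12.9% and 7.43% of all tested genes). With SR9009, the sums in control and KO-labelled libraries were 43.4 to 46.8 and 40.4 to 42.2 FPKM (Kupffer cells), 7.25 to 8.74 and 10.84 to 10.98 (endothelium), and 39.4 to 61.7 and 34.5 to 38.7 (bile duct). Their part in the Cyp2a values was not tested. Of the targeted genes, Nr1d1 under DMSO was at 18.5 ± 0.412 FPKM for the control and 17.7 ± 0.459 for the KO label, and Nr1d2 at 15.3 ± 1.87 and 16.2 ± 0.0949 (SD, n = 3); the sources used here do not give the deleted part, so whole-gene values check neither deletion nor label. Arntl, a clock gene repressed by REV-ERB, was at 0.214 ± 0.0796 and 6.49 ± 0.307 FPKM. Fewer cells of a type and less RNA per cell cannot be told apart in such bulk samples.

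Cyp2a5 was the most abundant member in every library and the one that differed most in FPKM between the groups. Cyp2a5 (ENSMUSG00000005547, mm9 chromosome 7, 27620324 to 27628567, + strand) stood at 331, 363 and 329 FPKM in control DMSO and at 398, 405 and 395 in control SR9009. In KO-labelled cells it stood at 2244, 2285 and 2288 FPKM under DMSO and at 2968, 2970 and 3005 under SR9009. The 4 groups did not overlap: both control groups lay below both KO-labelled ones, and within each genotype DMSO lay below SR9009. With DMSO and SR9009, the means were 341 ± 18.9 and 399.5 ± 5.02 FPKM in control and 2272 ± 25.0 and 2981 ± 20.8 in KO-labelled cells (SD, n = 3 each).

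The genotype difference in Cyp2a5 was 6.66-fold under DMSO, a log2 difference of 2.73 (SE 0.047), given without a test as said above. In DMSO, 20.0% of the 11213 tested genes passed an adjusted p of 0.05 (11.7% higher and 8.32% lower in KO-labelled cells), and the groups did not overlap for 41.2%. Under SR9009, the level of Cyp2a5 in KO-labelled cells was 7.46-fold that in control cells. The log2 difference was 2.90 (SE 0.047), with an adjusted p of 2.02e-12 (limma, Benjamini-Hochberg over all tested genes). The members were chosen with earlier results of these data known, and the fit shares its spread with the DMSO libraries. The test is therefore not an independent check of the DMSO difference. All of the 3 members that could be tested were higher in this comparison, where 12.9% of the tested genes were called higher, 7.43% lower and 20.4% in either direction, and the groups did not overlap for 34.9%.

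SR9009 went with more Cyp2a5 in both genotypes. In control cells the rise was 1.17-fold, or 58.3 FPKM (log2 0.23, SE 0.047, limma adjusted p = 0.0107), in a comparison that called 3.69% of tested genes higher, 4.55% lower and 8.24% in either direction. This call was lost when only these groups were fitted (adjusted p = 0.11), after quantile normalization (0.172) and without control DMSO replicate 3 (0.0512). Over all 22 alternatives the adjusted p ran from 0.00654 to 0.172, and the log2 change stayed above 0, from 0.16 to 0.27. In KO-labelled cells the rise was 1.31-fold, or 709 FPKM (log2 0.39, SE 0.047, limma adjusted p = 0.00029), and it was called in all 22 alternatives (adjusted p 0.000158 to 0.00367). In that comparison 5.32% of genes were called higher, 4.56% lower and 9.87% in either direction, and the groups did not overlap for 32.3%. The difference between these changes contains the DMSO comparison from which the family was chosen, and it was not tested for the members. Over all tested genes, a difference of this kind was called for 0.0268% (0.0178% higher, 0.00892% lower). Both SR9009 comparisons use DMSO libraries that also enter the genotype comparison under DMSO. In each, the alternatives without a library of the other genotype could change only the adjusted p, not the log2 change.

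Some hepatocyte markers moved the other way with SR9009: of 8, 3 fell, none rose and 5 were not called in each genotype. Among all tested genes, 3.69% rose and 4.55% fell in control, and 5.32% and 4.56% in KO-labelled cells. Tat, a tyrosine aminotransferase, and Cps1, the first enzyme of the urea cycle, fell in both, Alb fell in control and Apoa1, an apolipoprotein, in KO-labelled cells. The summed level of the 8 in control was 33618 to 34242 FPKM with DMSO and 29920 to 32018 with SR9009. In KO-labelled cells it was 34984 to 37277 and 32819 to 33823 FPKM, and neither genotype showed overlap. The largest part of this sum was Alb, at 18369 to 20882 FPKM over all libraries. Among all tested genes, these groups did not overlap for 25.0% in control and 32.3% in KO-labelled cells. The part of these markers in the Cyp2a5 values was not tested.

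**Figure D1:**
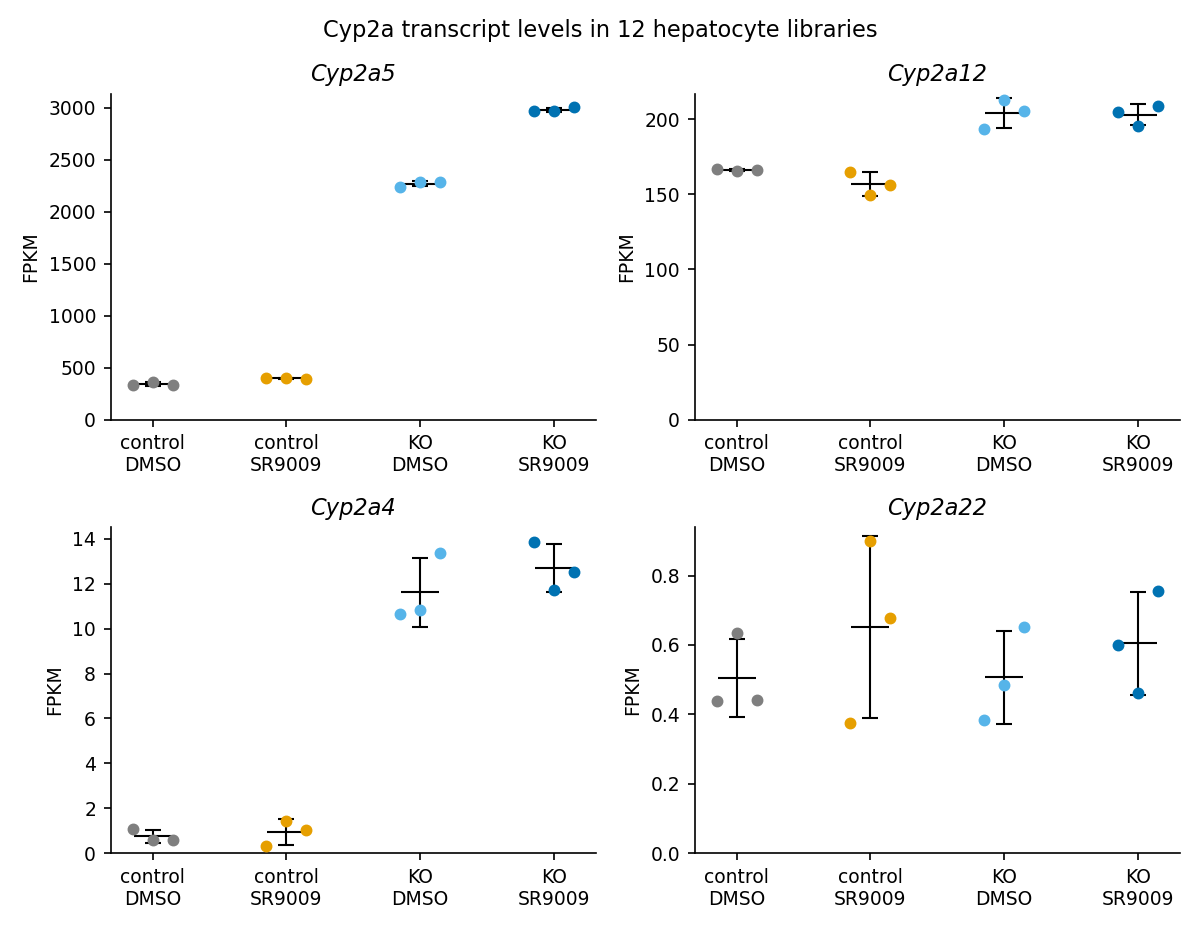
FPKM (vertical axes from 0, one scale per gene) of the 4 Cyp2a genes in each of 12 libraries (points), with the mean and SD of each group of 3 (bars). The Cyp2a5 groups do not overlap, from 329 FPKM in the lowest control DMSO library to 3005 in the highest KO-labelled SR9009 library, while the Cyp2a22 groups overlap throughout.

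Cyp2a5 was the leading transcript of the KO-labelled cells among the P450 genes counted. These were 103 genes whose symbol is Cyp with a number, letters and a further number. Cyp51 has no such symbol and was not counted, while pseudogenes such as Cyp2c53-ps were. Among the 103, the mean FPKM of Cyp2a5 was the 7th highest in control DMSO and in control SR9009, and the highest in both KO-labelled groups. In control DMSO the first place was held by Cyp2e1, an enzyme of ethanol and ketone metabolism, at 2027 ± 63.6 FPKM, followed by Cyp3a11, an enzyme of drug oxidation, at 1239 ± 42.2. In KO-labelled DMSO cells Cyp2e1 stood at 1828 ± 57.4 FPKM, below Cyp2a5 in every library. Cyp2a5 made up 3.72% ± 0.168 of the summed P450 FPKM in control DMSO and 3.8% ± 0.0104 in control SR9009. The share was 20.4% ± 0.485 in KO-labelled DMSO and 22.5% ± 0.307 in KO-labelled SR9009 libraries. The control shares thus lay close together, while the summed P450 FPKM was 9182 ± 310 in control DMSO and 10516 ± 139 in control SR9009. The sums in KO-labelled cells were 11170 ± 381 and 13262 ± 274 FPKM. By rank among all genes, Cyp2a5 lay between places 175 and 211 in control libraries and between 24 and 38 in KO-labelled ones.

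**Figure D2:**
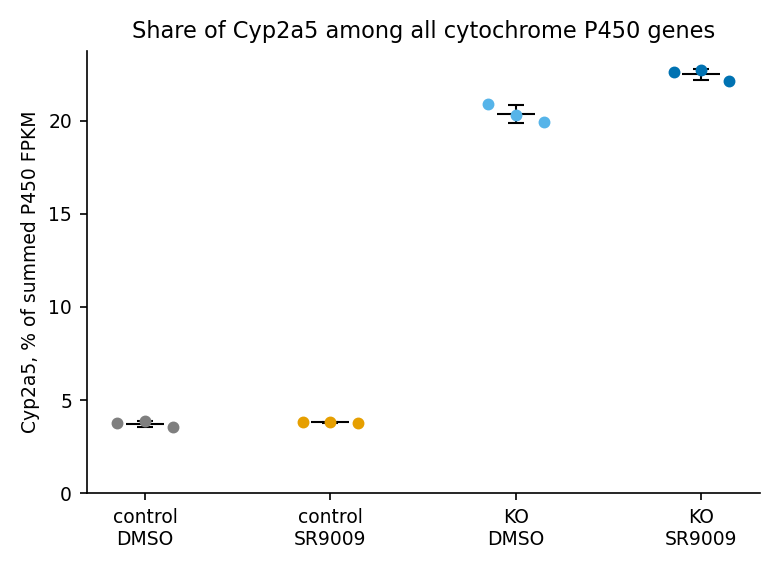
Cyp2a5 as a percentage of the summed FPKM of the 103 P450 genes counted by symbol (vertical axis from 0) in each of 12 libraries (points). Bars give the mean and SD of each group of 3. Cyp51 is not among the genes counted. Control libraries lie between 3.53% and 3.86%, KO-labelled ones between 19.9% and 22.7%.

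Cyp2a4, the near copy of Cyp2a5, differed between the genotypes at levels far below those of Cyp2a5. Cyp2a4 (ENSMUSG00000074254, mm9 chromosome 7, 27092209 to 27100107, + strand) stood at 1.08, 0.588 and 0.583 FPKM in control DMSO and at 0.317, 1.45 and 1.05 in control SR9009. In KO-labelled cells it stood at 10.6, 10.8 and 13.4 FPKM under DMSO and at 13.8, 11.7 and 12.5 under SR9009. Every KO-labelled library lay above every control library, and within a genotype the DMSO and SR9009 values overlapped. Of the 6 control libraries, 3 reached 1 FPKM, so the gene would have passed the filter of 1 FPKM in 3 libraries without the KO-labelled ones.

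In DMSO the Cyp2a4 means were 0.751 ± 0.287 and 11.6 ± 1.53 FPKM, a 15.5-fold difference (log2 2.85, SE 0.20, on the log2(FPKM + 1) scale, which understates changes at low levels). With a pseudocount of 0.1 the log2 difference was 3.83. Under SR9009 the means were 0.939 ± 0.575 and 12.7 ± 1.07 FPKM, a 13.5-fold difference (log2 2.87, SE 0.20, limma adjusted p = 7.09e-07). SR9009 itself gave no called change in Cyp2a4. The log2 change was 0.11 in control (95% confidence interval -0.32 to 0.54, limma adjusted p = 0.806) and 0.12 in KO-labelled cells (-0.31 to 0.55, adjusted p = 0.767), intervals that also hold the rises seen for Cyp2a5.

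**Figure D3:**
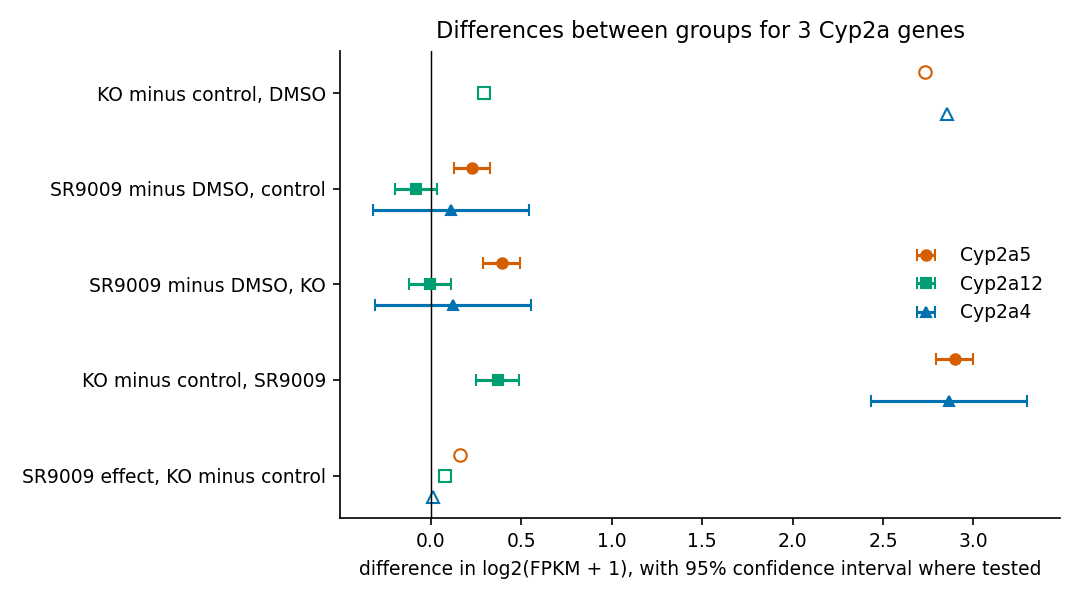
Differences in log2(FPKM + 1) (horizontal axis) for Cyp2a5, Cyp2a12 and Cyp2a4 in 5 comparisons (vertical axis). Filled symbols carry 95% confidence intervals from limma, and open symbols mark the comparisons given without a test. The genotype differences of Cyp2a5 and Cyp2a4 lie between 2.73 and 2.90 on this scale, which understates changes at the low levels of Cyp2a4. With a pseudocount of 0.1, those of Cyp2a4 were 3.83 in DMSO and 3.82 under SR9009. The SR9009 intervals lie above 0 for Cyp2a5 only.

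Because reads can pass between these copies, the share of Cyp2a4 in the summed FPKM of Cyp2a4 and Cyp2a5 was examined. It was 0.326%, 0.162% and 0.177% in control DMSO, and 0.0794%, 0.357% and 0.265% in control SR9009. In KO-labelled cells it was 0.472%, 0.471% and 0.581% under DMSO and 0.464%, 0.393% and 0.415% under SR9009. The share was thus below 1% everywhere, and the control and KO-labelled libraries did not overlap. With SR9009 the share went from a mean of 0.508% to 0.424% in KO-labelled cells, without overlap (two-sided exact permutation p = 0.1, the smallest that 3 against 3 libraries allow), and from 0.221% to 0.234% in control (p = 0.9). The part of misplaced reads in the Cyp2a4 values was not tested. With the copies summed to 1 feature, the log2 differences were those of Cyp2a5: 2.74 between genotypes in DMSO and 2.90 under SR9009, and 0.23 and 0.39 for SR9009 in control and KO-labelled cells. As Cyp2a4 was below 1% of the sum, this outcome was fixed in advance and does not check how reads were assigned.

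**Figure D4:**
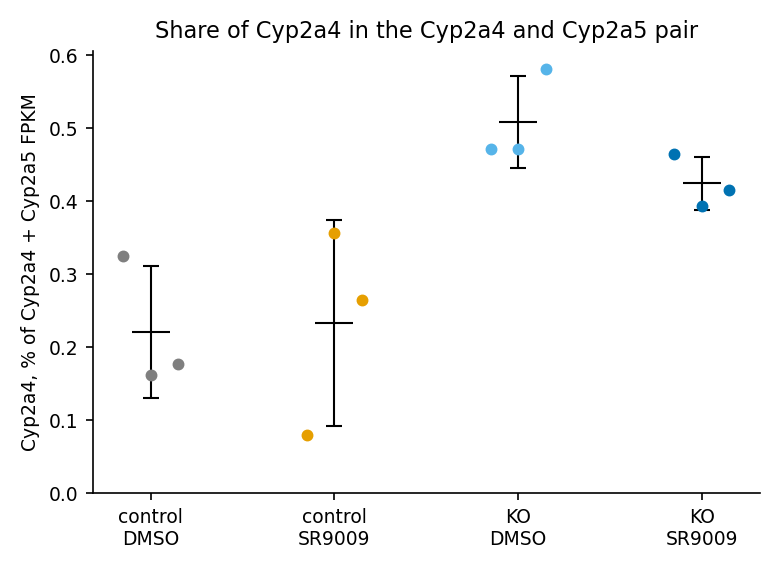
Cyp2a4 as a percentage of the summed FPKM of Cyp2a4 and Cyp2a5 (vertical axis from 0) in each of 12 libraries (points), with the mean and SD of each group of 3 (bars). The highest control library is at 0.357% and the lowest KO-labelled library at 0.393%.

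Cyp2a12 was abundant in all libraries and showed a small genotype difference. Cyp2a12 (ENSMUSG00000060407, mm9 chromosome 7, 27814109 to 27821826, + strand) stood at 167, 165 and 166 FPKM in control DMSO and at 165, 149 and 156 in control SR9009. In KO-labelled cells it stood at 193, 213 and 205 FPKM under DMSO and at 205, 196 and 209 under SR9009. Every KO-labelled library lay above every control library. The difference was 1.23-fold in DMSO (log2 0.29, SE 0.054, without a test) and 1.29-fold under SR9009 (log2 0.37, SE 0.054, limma adjusted p = 0.000371). SR9009 gave no called change. The log2 change was -0.081 in control (95% confidence interval -0.20 to 0.036, limma adjusted p = 0.426), where the groups did not overlap, as they did not for 25.0% of tested genes. It was -0.0052 in KO-labelled cells (-0.12 to 0.11, adjusted p = 0.971), and these intervals leave out the rise seen for Cyp2a5 in KO-labelled cells.

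Cyp2a22, the near copy of Cyp2a12, stayed below 1 FPKM in all libraries. Cyp2a22 (ENSMUSG00000091867, mm9 chromosome 7, 27716650 to 27724405, - strand) stood at 0.439, 0.636 and 0.441 FPKM in control DMSO and at 0.377, 0.898 and 0.678 in control SR9009. In KO-labelled cells it stood at 0.384, 0.484 and 0.651 FPKM under DMSO and at 0.599, 0.46 and 0.756 under SR9009. The groups overlapped in every comparison, and the gene did not pass the filter and was left out of the fit. Two-sided exact permutation tests gave p = 0.6 and p = 0.5 for SR9009 in control and KO-labelled cells and p = 0.9 between genotypes under SR9009. Its share of the summed FPKM of Cyp2a12 and Cyp2a22 ranged from 0.198% to 0.597% over all libraries, and the ranges of the 4 groups overlapped.

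By level in control DMSO, the order was Cyp2a5, Cyp2a12, Cyp2a4 and Cyp2a22, and the ranges of the last 2 overlapped. The summed FPKM of the family was 508 ± 18.4 with DMSO and 558 ± 5.61 with SR9009 in control, and 2488 ± 35.1 and 3197 ± 26.2 in KO-labelled cells. Cyp2a5 contributed 67.1% ± 1.27, 71.6% ± 1.07, 91.3% ± 0.305 and 93.2% ± 0.200 of it in the same order.

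The members lie in a cluster with other Cyp2 genes, from Cyp2s1 to Cyp2t4 over 1356 kb of mm9 chromosome 7. Of its 28 rows in the table, 13 are Cyp2 genes and 6 rows passed the filter. Of the rows that passed, all but Cyp2b10 had higher means in KO-labelled than in control cells under each treatment. Cyp2a4 lies 520 kb from Cyp2a5, and the gaps from Cyp2a5 to Cyp2a22 and from Cyp2a22 to Cyp2a12 are 88.1 and 89.7 kb. No other gene model of the table overlaps a member. Cyp2f2, an enzyme that activates naphthalene, stood under DMSO at 202 ± 5.82 FPKM in control and 463 ± 18.8 in KO-labelled libraries (log2 1.19, limma adjusted p = 1.65e-08). SR9009 gave no called change in Cyp2f2 (adjusted p = 0.928 in control and 0.416 in KO-labelled cells). Cyp2b10, the classical target of CAR, went the opposite way between genotypes, from 317 ± 28.6 to 98.4 ± 5.54 FPKM in DMSO (log2 -1.68, adjusted p = 1.13e-08). With SR9009 it rose to 1084 ± 71.7 FPKM in control and to 531 ± 8.95 in KO-labelled cells (adjusted p = 4.11e-08 and 2.58e-09). The other 7 Cyp2 genes, Cyp2b9, Cyp2b13, Cyp2b19, Cyp2b23, Cyp2g1, Cyp2s1 and Cyp2t4, did not pass the filter, and their highest value was 0.789 FPKM. Gm15883, a gene model within Cyp2f2 on the opposite strand, was the sixth row that passed. Under DMSO it stood at 0.435 ± 0.144 FPKM in control and 1.60 ± 0.287 in KO-labelled libraries.

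**Figure D5:**
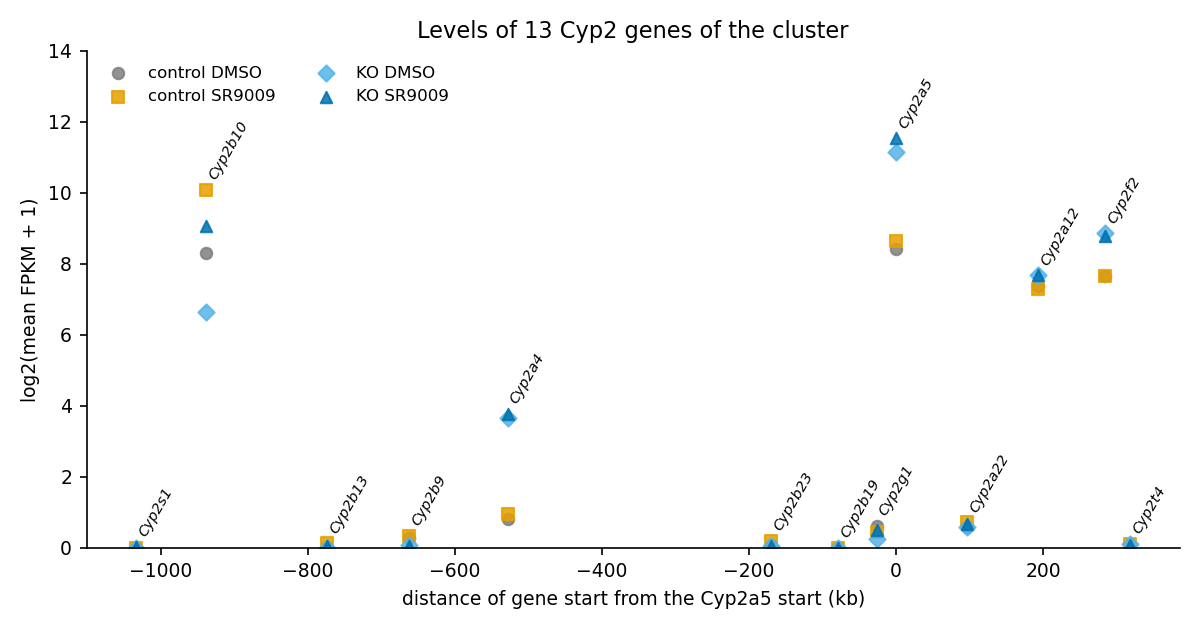
log2(mean FPKM + 1) of 13 Cyp2 genes (vertical axis) in the 4 groups (symbols) against the distance of the gene start from that of Cyp2a5 in kb (horizontal axis). Cyp2a5, Cyp2a4, Cyp2f2 and, by less, Cyp2a12 are higher in the KO-labelled groups. Cyp2b10 is lower there at equal treatment, and 8 genes lie near 0 in all groups.

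Of 16 listed regulators known to act on Cyp2a5, 15 were tested. Between genotypes in DMSO, 2 were higher and 2 lower, where 11.7% of all tested genes were higher and 8.32% lower, shares not far from those of the list, with a median log2 difference of -0.085 against 0.035 over all tested genes. Dbp, the clock output factor, was at 1.69 ± 0.0694 FPKM in control and 4.42 ± 0.689 in KO-labelled cells (limma adjusted p = 0.000558). Its model shares 689 bp with the opposite-strand Sphk2, at a mean of 8.6 FPKM. Arnt, the dimer partner of the aryl hydrocarbon receptor, was at 7.56 ± 0.386 and 11.8 ± 0.177 FPKM (adjusted p = 0.000315). Nr1i3, which encodes CAR, was lower at 6.49 ± 0.312 against 9.83 ± 1.59 FPKM (adjusted p = 0.00435), and so was Ahr, the aryl hydrocarbon receptor, at 5.09 ± 0.783 against 8.11 ± 1.21 (adjusted p = 0.0197). The Nr1i3 model overlaps that of Tomm40l on the opposite strand by 2900 bp.

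Under SR9009, 2 regulators were higher and 4 lower in KO-labelled than in control cells (12.9% and 7.43% of all tested genes), with a median log2 difference of 0.033 against 0.057 over all tested genes. Those higher were again Dbp and Arnt (limma adjusted p = 0.00212 and 0.0135). Those lower were Nr1i2, which encodes the xenobiotic receptor PXR, Nr1i3, Hnf4a and Ahr (adjusted p = 0.00125, 0.00216, 0.0143 and 0.0211). Nr1i2 was at 20.5 ± 1.61 FPKM in KO-labelled and 30.2 ± 2.14 in control cells.

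With SR9009, 1 regulator rose and 4 fell in control cells (3.69% and 4.55% of all tested genes; median log2 change -0.18 against -0.016 over all genes), and none rose and 4 fell in KO-labelled cells (5.32% and 4.56%; -0.16 against 0.0042). Nr1i2 rose in control from 21.1 ± 1.52 to 30.2 ± 2.14 FPKM (limma adjusted p = 0.00602). Hnf4a, the hepatocyte factor, fell from 254 ± 6.08 to 193 ± 21.0 FPKM in control (adjusted p = 0.0225) and from 226 ± 8.42 to 150 ± 20.2 in KO-labelled cells (adjusted p = 0.00173). Its model overlaps an opposite-strand model with a mean level of 2.16 FPKM. Rxra, the partner of CAR and PXR, fell in both genotypes (adjusted p = 0.00229 and 0.00148), to 30.4 ± 3.21 and 27.1 ± 1.43 FPKM. Tef and Hlf, relatives of Dbp, fell in control (adjusted p = 0.0454 and 0.0412), and Gata4 and Arnt fell in KO-labelled cells (adjusted p = 0.0205 and 0.0211). Nfe2l2, which encodes NRF2, lay between 57.5 ± 2.35 and 64.1 ± 3.34 FPKM in the group means and was not called in any of these comparisons (smallest adjusted p = 0.258). Nr3c1, Usf1, Nfia and Nfic were not called either. Ppargc1a, a coactivator, reached at most 0.338 FPKM and was not tested.

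Genes that share inducers with Cyp2a5 mostly rose where SR9009 changed them, and moved both ways between genotypes. Of 25 genes induced through CAR or PXR, SR9009 raised 11 and lowered 1 in control, and raised 10 and lowered none in KO-labelled cells (median log2 change 0.20 and 0.19), where SR9009 raised 3.69% and lowered 4.55% of all tested genes in control and raised 5.32% and lowered 4.56% in KO-labelled cells. Between genotypes 7 were higher and 7 lower under each treatment, against 11.7% and 8.32% of all tested genes in DMSO and 12.9% and 7.43% under SR9009. Cyp2c55, an inducible P450, is one whose groups took the same order as those of Cyp2a5, at 3.63 ± 0.264, 5.26 ± 0.601, 14.8 ± 1.00 and 23.2 ± 1.08 FPKM. The Ugt1a models in this list share 7039 bp on the same strand, so they are not fully separate counts. Of 18 genes induced through NRF2, 4 rose in control and 8 in KO-labelled cells with SR9009 and none fell, and in DMSO 4 were higher and 7 lower in KO-labelled cells, against the same shares of all genes. Of 7 genes induced through the aryl hydrocarbon receptor, 3 were tested. Cyp1a2, an enzyme of arylamine oxidation, rose with SR9009 in both genotypes (limma adjusted p = 0.0033 and 0.00354).

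Among partners of P450 enzymes in electron transfer and heme supply, the reductase moved opposite to Cyp2a5 between genotypes. With SR9009, of 17, 5 rose and 1 fell in control and 5 rose and none fell in KO-labelled cells. The shares of all tested genes were 3.69% and 4.55% in control and 5.32% and 4.56% in KO-labelled cells. In DMSO 3 were higher and 2 lower in KO-labelled cells, near the 11.7% and 8.32% of all tested genes. Por, the P450 reductase, was lower in KO-labelled DMSO (285 ± 3.15 FPKM) than in control DMSO (435 ± 13.3; limma adjusted p = 2.35e-06), opposite to Cyp2a5, and rose with SR9009 to 649 ± 24.6 in control and 415 ± 14.2 in KO-labelled cells (adjusted p = 2.85e-05 and 3.01e-05). Cytochrome b5, listed as Cyb5, was at 380 ± 19.5 FPKM in control DMSO and rose with SR9009 in both genotypes (adjusted p = 0.013 and 0.00406). Alas1, the first enzyme of heme synthesis, rose with SR9009 in control from 165 ± 31.3 to 307 ± 41.3 FPKM (adjusted p = 0.0057), and its change in KO-labelled cells was not called (adjusted p = 0.224).

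Since Cyp2a4 is known for higher levels in females, genes of that kind were examined. Of 19 genes known for higher levels in female liver, 17 did not pass the filter, with a highest value of 0.97 FPKM. Of the other two, Cyp17a1, a steroid hydroxylase, was under DMSO at 0.271 ± 0.125 FPKM in control and 6.27 ± 0.748 in KO-labelled cells. No control library reached 1 FPKM, so it passed the filter only through the KO-labelled libraries and its test is not given. Nipal1 was not called. Of 22 genes known for higher levels in male liver, 21 were tested, and 8 were higher and 6 lower in KO-labelled DMSO, against 11.7% and 8.32% of all tested genes. The list holds several Mup genes, which may not be separate counts. The Mup7 model shares 3089 bp with that of Mup2 on the same strand. With SR9009, 1 of them rose in each genotype and none fell. Over all tested genes, 3.69% rose and 4.55% fell in control, and 5.32% and 4.56% in KO-labelled cells.

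Genes whose pattern over the 12 libraries was closest to that of a member were named by Pearson's r of log2(FPKM + 1), as a description, since all points share 4 groups and the genotype difference sets most of r. For Cyp2a5 they were Cyp3a59, a P450 (r = 0.997), Ephx1, the microsomal epoxide hydrolase (0.996), Ctsl, a lysosomal protease (0.996), Apcs, serum amyloid P (0.995), and Tars, a tRNA synthetase (0.994). Of these, Apcs rose with SR9009 in KO-labelled cells, from 319 ± 10.5 to 392 ± 25.7 FPKM (limma adjusted p = 0.011), and the SR9009 changes of the others were not called in either genotype (smallest adjusted p = 0.126, for Ephx1). For Cyp2a4 they were Ass1, an enzyme of the urea cycle (0.992), Anxa5, a phospholipid-binding annexin (0.989), and Hsd17b6, a steroid dehydrogenase (0.986). For Cyp2a12 they were C8b of the complement system (0.985), Serpind1, an inhibitor of thrombin (0.981), and Pyroxd2 (0.977).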

How the data were processed

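Transcript levels of 12 hepatocyte libraries were taken from 1 table deposited by the authors. The submitters' processing notes name HISAT2, StringTie and mm9; the sources used here give no versions, annotation release or strand setting. The header names no unit. Values deposited by the authors were read as FPKM, since libraries summed to 538521 to 604449, not to one common total. No count of reads is given.

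The 11213 genes that reached 1 FPKM in 3 or more libraries were, as log2(FPKM + 1), fitted with limma 3.58.1 in R 4.3.3, with a mean per group over all 12 libraries and with trend and robust variance. Benjamini-Hochberg adjustment covered all tested genes (threshold 0.05). The fit was tested on simulated data. A fold is a ratio of mean FPKM. Errors are SDs over 3 libraries. Named genes were the members, all genes of the cluster and regulator lists, up to 4 genes with the smallest p of each other list spoken of, and the 5 (Cyp2a5) or 3 (others) closest patterns among genes with a mean of at least 5 FPKM. Some genes so named are also given in a further comparison. Members and lists were chosen with earlier results of these data known. At most 0.0535% of tested genes held equal values in any 2 libraries. Alternatives covered the pseudocount, filters, scaling, variance model, samples fitted, a replicate block, summed copies and libraries left out.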

Additional observations from a re-analysis of the deposited data

Results flagged for a closer look

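The SR9009 effect differed between the genotypes, by the test of that difference, for 2 genes of the lists. Gstm3, a glutathione transferase induced through CAR, rose from 104 ± 13.03 to 317 ± 15.8 FPKM in control and from 751 ± 14.9 to 1286 ± 19.0 in KO-labelled cells, so that the log2 effect in KO-labelled minus control cells was -0.835 (limma adjusted p = 0.0307). It was called in 7 of 21 alternatives (adjusted p 0.0101 to 0.256), and not with the replicate block (0.0615). Its model overlaps that of Gstm6 on the same strand. Hmox2, a heme oxygenase, was at 36.8 ± 3.02 and 21.1 ± 0.399 FPKM in control DMSO and SR9009 and at 34.1 ± 1.10 and 36.3 ± 1.65 in KO-labelled cells, a difference of 0.856 (limma adjusted p = 0.00854). It was called in 17 of 21 alternatives (adjusted p 0.00598 to 0.0926), and not with the replicate block (0.0615), without KO DMSO replicate 1 (0.0505) or 2 (0.0549), or without the 2 shallowest libraries (0.0926). Its model overlaps 5730403B10Rik on the opposite strand by 16395 bp.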

How the results depend on the processing

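Of 195 recomputed values of the tested Cyp2a comparisons, 188 kept direction and side of the threshold. Part of this was fixed in advance. Leaving out a library of a group outside the comparison keeps the log2 change, and summing Cyp2a4 with Cyp2a5 cannot move that of Cyp2a12. Besides the 3 settings named for Cyp2a5, the sign of uncalled SR9009 changes turned for Cyp2a4 in control without control SR9009 replicate 2 (-0.0799; -0.0799 to 0.368 with 1 library left out) and for Cyp2a12 in KO-labelled cells without KO DMSO replicate 2 (0.0272), KO DMSO replicate 3 (0.000242) or KO SR9009 replicate 2 (0.0217), with a range of -0.0432 to 0.0272. The genotype calls under SR9009 held in every setting run.

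Of 104 recomputed counts of called genes, 84 stayed within 1.5 times. The 924 genes of SR9009 in control became 415 with only these groups fitted and 605 without the 2 shallowest libraries, a setting added after seeing the data. With 1 library left out they ranged from 531 to 920 (536, 545 and 531 without control DMSO replicate 1, 2 and 3). The 1107 of SR9009 in KO-labelled cells ranged from 604 to 1437, with 703 without KO DMSO replicate 3 and 604 and 672 without KO SR9009 replicates 1 and 2. The 3 genes with an SR9009 effect differing between genotypes (787 at an unadjusted p under 0.05) became 1 without a filter, after quantile normalization, without trend and robust variance and without the 2 shallowest libraries, and from 0 to 5 with 1 library left out (5 without control DMSO replicate 1, 0 without KO DMSO replicate 1 or 2). The cause was not tested. No pairing by replicate number was seen, though such a check cannot exclude one and the labels do not state one. Of 18 same-numbered pairs of deviations from group means, 1 correlated above 0.1, and 5 of 12 libraries lay closest to their own number. With the replicate block, the counts were 2084 (genotype in DMSO), 793 (SR9009 in control), 958 (SR9009 in KO-labelled), 2131 (genotype under SR9009) and 0 (difference of SR9009 effects), and no Cyp2a call changed. Cyp2a22 and, in control, Cyp2a4 have low values. The SR9009 intervals of Cyp2a4 hold changes of the size seen for Cyp2a5.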
